A study of Mus musculus with 16 samples.

Results

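The genes described here are 10 autophagy genes, namely 5 soluble receptors that carry cargo (*Sqstm1*, *Nbr1*, *Optn*, *Calcoco1* and *Tax1bp1*) and 5 genes of the ATG8 family (the LC3 genes *Map1lc3a* and *Map1lc3b*, and the GABARAP genes *Gabarap*, *Gabarapl1* and *Gabarapl2*). They were matched by symbol in the deposited table of log2 CPM (the log2 of counts scaled to library size), and 10 of 10 were found among its 16707 genes. RNA was sequenced from primary astrocytes of C57BL/6J wild type (WT) mice and of *Nlrx1*-/- (KO) mice on the same background, a global knockout of the mitochondrial innate immune regulator NLRX1. Which exons were deleted is not given in the sources used here. Astrocytes came from brains of pups at age 6 days, were selected with beads against the surface antigen ACSA2, grown in serum-free medium for about 10 days, and exposed for 24 h to vehicle (water) or to 500 ng/mL lipopolysaccharide (LPS, from the bacterial outer membrane) plus 10 ng/mL of the cytokine IFNγ. Age and vehicle are those of the labels, and the study's own text elsewhere gives a younger age and phosphate-buffered saline as the vehicle. There were 4 litters per genotype, and each litter gave 1 vehicle and 1 LPS + IFNγ library, for 16 libraries in 4 groups. Litters carry the replicate numbers of the labels, 1 to 4 within a genotype, and all values in a series of 4 below are in that order.

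In selective autophagy a double membrane grows around a chosen cargo and delivers it to the lysosome. ATG8 proteins are attached to the lipids of that membrane, and soluble receptors such as p62 bind ubiquitin on the cargo through one domain and ATG8 proteins through a short LC3-interacting motif. The receptors and the ATG8 proteins bound on the inner face are degraded with the cargo, so protein and transcript levels of these genes can part, and only transcript levels were measured here. In glia these proteins are studied for the clearing of damaged mitochondria and protein aggregates, and p62, OPTN and TAX1BP1 also sit in innate immune signalling complexes.

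Libraries held between 27259420 and 43752903 read pairs assigned to transcripts (median 35554625). *Nlrx1* itself lay between 4.08 and 4.44 log2 CPM in the WT libraries and between 1.09 and 2.96 in the KO libraries, so no KO library reached a WT library. Astrocyte markers were present (10 of 10 in the table), and their summed level ranged from 6319.7 to 10848.4 CPM in WT and from 5386.3 to 8416.6 CPM in KO libraries. After LPS + IFNγ 10 of 10 had a lower mean in KO. Of these 5 were called lower at an adjusted p below 0.05, as were 4.41% of all genes. Of 10 microglial markers 8 were not in the table, with at most 20 read pairs each in a library, and oligodendrocyte lineage markers summed to between 2135.2 and 3733.4 CPM. Neuronal markers summed to between 32.9 and 45.8 CPM in vehicle and between 70.3 and 105.2 CPM in LPS + IFNγ libraries. The sum rose with *Tubb3*, whose median went from 3.34 to 6.05 log2 CPM in WT and from 3.11 to 5.95 in KO. Of the 6 neuronal markers tested, 4 had a lower mean after treatment in each genotype. Their median response was -0.29 log2 units in WT (1 called up, 3 down) and -0.51 in KO (2 up, 4 down). In bulk RNA fewer cells of a type and less RNA per cell cannot be told apart, and the part of these markers in the values below was not tested.

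The order of the 10 genes was read from TPM, a level scaled to the library, which corrects for transcript length and so allows levels of different genes to be compared within a library. In WT vehicle astrocytes *Gabarap* stood at 571 ± 69.7 TPM (SD, n = 4) and *Sqstm1* at 448 ± 90.2 TPM, and their ranges, 480 to 649 and 340 to 560, overlapped. *Map1lc3b* followed at 220 ± 31.2 TPM and *Gabarapl2* at 187 ± 6.71 TPM, with overlapping ranges. These 4 genes encode a GABARAP protein, the receptor p62, the LC3 protein most used as a marker of autophagosomes, and the GABARAP relative also called GATE-16.

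*Gabarapl1* at 178 ± 20.1 TPM, *Map1lc3a* at 146 ± 7.14, *Nbr1* at 139 ± 5.70 and *Tax1bp1* at 135 ± 7.23 (SD, n = 4) formed a run in which each gene overlapped the next. *Calcoco1* at 97.1 ± 8.79 TPM and *Optn* at 25.4 ± 1.33 TPM came last and overlapped no other member. *Calcoco1* was 9th and *Optn* 10th of 10 in 16 of 16 libraries, and *Gabarap* and *Sqstm1* held the 2 highest places in all of them. *Map1lc3b* was the least settled, from 3rd to 8th place. *Optn*, the lowest member, still rested on 740 to 1633 read pairs per library, against 7709 to 18722 for *Sqstm1*.

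**Figure D1:**
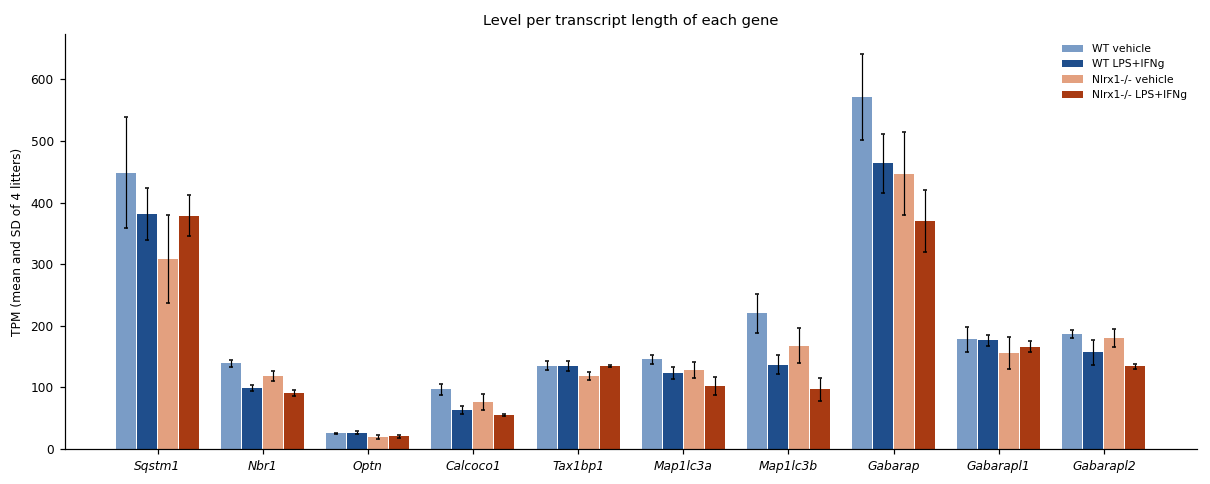
Transcript level per length of the 10 genes, with TPM on a linear axis from 0. Bars are the means of 4 litters in each of the 4 groups and whiskers are the SD. *Gabarap* and *Sqstm1* have the tallest bars and *Optn* the shortest in each group. TPM are not scaled between libraries, so bars are to be read between genes and not between groups.

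Most members were carried by a single transcript. *Calcoco1*, *Gabarap*, *Gabarapl1* and *Gabarapl2* had 1 transcript paired with their symbol, and a transcript of 2455 bases held at least 98.1% of *Map1lc3b*. *Sqstm1* was split between a transcript of 2030 bases, with 75.7% to 84.9% of its TPM over the libraries, and another of 1916 bases. The mean share of the longer one in WT was 79.2% with vehicle and 82.4% after treatment, and in KO it was 79.3% and 82.4%.

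Upstream sequence is shown for 4 members that changed in the same direction in both genotypes, as described below (*Optn*, *Calcoco1*, *Tax1bp1* and *Map1lc3b*), and for *Sqstm1*. The choice of sequences and motifs shown does not cover every match found. The sequences are those of RefSeq, from a table built on GRCm38.p6 that gave 11 windows for 9 members, and coordinates are on GRCm39, where each matched exactly 1 place. Numbers before the start site are negative. Of the first 4 the bases outside the annotated exons of the gene are printed, on the minus strand for *Optn* (chr2:5068946-5069178) and *Calcoco1* (chr15:102630632-102630863) and on the plus strand for *Tax1bp1* (chr6:52690900-52691149, the second of its windows) and *Map1lc3b* (chr8:122316927-122317099). Capitals mark a motif match, which in this set is the antioxidant response element of *Tax1bp1* from -205 to -197. That window lies inside the annotated span of *Tax1bp1* (chr6:52690676-52745153), after its first base. The first window of the gene (chr6:52690464-52690713), which is not printed, held no match.
Optn: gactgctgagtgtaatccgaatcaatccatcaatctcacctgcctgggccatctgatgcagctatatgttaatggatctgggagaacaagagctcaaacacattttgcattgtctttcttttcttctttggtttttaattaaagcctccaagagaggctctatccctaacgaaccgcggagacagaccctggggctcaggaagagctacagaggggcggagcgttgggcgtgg
Calcoco1: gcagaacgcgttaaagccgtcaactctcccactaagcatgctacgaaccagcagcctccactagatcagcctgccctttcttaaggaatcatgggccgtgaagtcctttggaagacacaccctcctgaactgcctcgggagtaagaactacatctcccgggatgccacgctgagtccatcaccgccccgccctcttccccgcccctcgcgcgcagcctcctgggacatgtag
Tax1bp1: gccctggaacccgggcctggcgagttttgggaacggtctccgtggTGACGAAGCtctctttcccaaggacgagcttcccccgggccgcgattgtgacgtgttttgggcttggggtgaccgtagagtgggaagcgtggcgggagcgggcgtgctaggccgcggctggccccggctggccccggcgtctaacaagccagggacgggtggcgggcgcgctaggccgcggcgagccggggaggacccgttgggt
Map1lc3b: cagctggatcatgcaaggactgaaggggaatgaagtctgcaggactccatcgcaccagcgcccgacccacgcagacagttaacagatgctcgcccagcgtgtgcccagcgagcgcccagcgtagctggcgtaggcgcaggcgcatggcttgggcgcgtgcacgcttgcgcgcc

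For *Sqstm1* the searched part lies in 5′ exons of GENCODE M39 transcripts of the same gene, so 30 bases around the match are shown, on the minus strand (chr11:50101648-50101677). Capitals mark an NF-κB motif, from -18 to -9.
Sqstm1: cccccacgaggcGGGGCTCCCCcgttttct

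Motifs were searched on both strands in the 250 bases upstream, and those given here are not all that were searched. TGACNNNGC (antioxidant response element) was in 1 of 11 member windows and in 10.2% of 32851 windows of all genes, and the NF-κB motif was in 1 of 11 and in 7.25% of all. CACGTG, the core of the element bound by the lysosomal regulator TFEB, was in 0 of 11 and in 6.02% of all, and its longer form TCACGTGA, which contains it, was in 0 of 11 and in 0.785%. The interferon-stimulated response element and TGACGTCA (cyclic AMP response element) were each in 0 of 11, against 2.98% and 1.55%. A match is a description and not a binding site, and the lack of a match says only that these letters are not in the window.

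Changes were tested with limma on the log2 CPM of all 16707 genes, with the response to LPS + IFNγ taken within litters, and a gene is called where its Benjamini-Hochberg adjusted p is below 0.05. In WT astrocytes 6 of 10 members were called, 3 up (*Optn*, *Tax1bp1* and *Gabarapl1*) and 3 down (*Nbr1*, *Calcoco1* and *Map1lc3b*), where 46.7% of all genes were called, 24.9% up and 21.9% down. In KO astrocytes 9 of 10 were called, 4 up and 5 down, where 52.1% of all genes were called, 26.6% up and 25.5% down. The 6 members called in WT were also called in KO and in the same direction, and *Sqstm1* (up), *Map1lc3a* and *Gabarapl2* (both down) were called in KO alone, although for none of the 3 was the difference between genotypes itself called. Calls went up and down in near equal parts among all genes (53.2% up in WT, 51.1% in KO), but after centring each library on its median that share was 40.6% and 41.4%. With that centring 5 members were called in WT, 1 up and 4 down (48.1% of all genes, 19.5% up and 28.6% down), and 10 in KO, 4 up and 6 down (52.9% of all genes, 21.9% up and 31% down). The median response of the members was -0.03 log2 units in WT and -0.12 in KO, beside -0.02 over all genes in each.

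**Figure D2:**
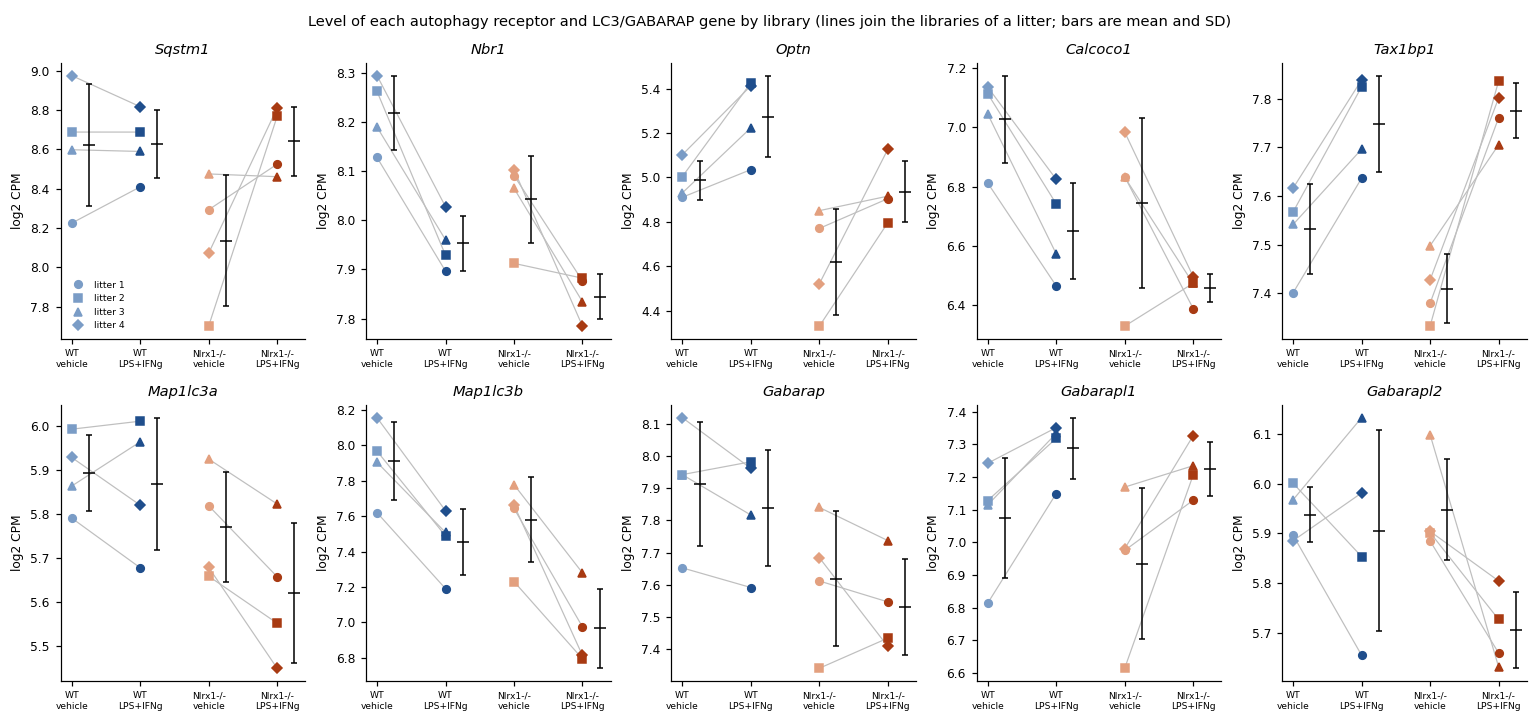
Level of each of the 10 genes in log2 CPM, 1 panel per gene, by group (WT and KO, vehicle and LPS + IFNγ), with 1 point per litter, lines that join the libraries of a litter, and the group mean with SD (n = 4). *Map1lc3b* falls and *Tax1bp1* rises in each of the 8 litters, and *Sqstm1* in KO vehicle spreads from 7.70 to 8.47.

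*Sqstm1* (chromosome 11, 50089572 to 50107684, minus strand) encodes p62, the receptor that gathers ubiquitin-tagged cargo and is itself a target of the antioxidant factor NRF2. In WT it measured 8.22, 8.69, 8.60 and 8.97 log2 CPM with vehicle (8.62 ± 0.31, SD, n = 4) and 8.41, 8.69, 8.59 and 8.82 after LPS + IFNγ (8.63 ± 0.17). In KO it measured 8.29, 7.70, 8.47 and 8.07 with vehicle (8.14 ± 0.33) and 8.52, 8.77, 8.46 and 8.81 after LPS + IFNγ (8.64 ± 0.17). The KO vehicle libraries of litters 2 and 4 were the lowest of the 16, and after LPS + IFNγ the genotypes covered nearly the same range. The litter responses in log2 units were 0.18, -0.00, -0.01 and -0.16 in WT and 0.23, 1.07, -0.01 and 0.74 in KO, so 2 KO litters carried most of the rise and KO litter 3 did not move. The response was 0.00 in WT (standard error 0.13, limma adjusted p = 0.982, 95% interval -0.29 to 0.30) and 0.51 in KO (standard error 0.13, limma adjusted p = 0.00733), a fold of 1.42. Without KO litter 2 the KO response was 0.32 (limma adjusted p = 0.0358).

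*Nbr1* (chromosome 11, 101442962 to 101472781, plus strand) encodes a receptor that acts with p62 on ubiquitinated cargo and peroxisomes. Vehicle libraries measured 8.13, 8.26, 8.19 and 8.29 log2 CPM in WT and 8.09, 7.91, 8.06 and 8.10 in KO. Treated libraries measured 7.90, 7.93, 7.96 and 8.03 in WT and 7.88, 7.88, 7.83 and 7.78 in KO. Within WT the treatment groups did not overlap, and within KO they did not either, although KO litter 2 moved by only -0.03 against -0.21 to -0.32 in the other KO litters. The response was -0.27 in WT (standard error 0.05, limma adjusted p = 0.00101) and -0.20 in KO (standard error 0.05, limma adjusted p = 0.0057), a fold of 0.83 and 0.87.

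*Optn* (chromosome 2, 5022703 to 5068945, minus strand) encodes optineurin, a receptor for damaged mitochondria and intracellular bacteria. With vehicle it measured 4.91, 5.00, 4.93 and 5.10 log2 CPM in WT and 4.77, 4.33, 4.85 and 4.52 in KO. After LPS + IFNγ it measured 5.03, 5.43, 5.22 and 5.41 in WT and 4.90, 4.80, 4.92 and 5.13 in KO. It was higher after treatment in 8 of 8 litters, by 0.07 to 0.61 log2 units, while the treatment groups overlapped in both genotypes. It rose by 0.29 in WT (standard error 0.09, limma adjusted p = 0.0226) and by 0.32 in KO (standard error 0.09, limma adjusted p = 0.0122). The WT call was lost after median centring (0.20, limma adjusted p = 0.0809) and without WT litter 2 (0.24, limma adjusted p = 0.109), 3 (0.0702) or 4 (0.0704), and the KO call without KO litter 2 (0.27, limma adjusted p = 0.0532) or 4 (0.22, limma adjusted p = 0.0714).

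*Calcoco1* (chromosome 15, 102614354 to 102630631, minus strand) encodes a receptor for the endoplasmic reticulum and the Golgi. Vehicle libraries measured 6.81, 7.11, 7.05 and 7.14 log2 CPM in WT and 6.83, 6.33, 6.83 and 6.98 in KO. Treated libraries measured 6.47, 6.74, 6.57 and 6.82 in WT and 6.39, 6.47, 6.47 and 6.50 in KO. It was lower after treatment in each WT litter and in 3 of 4 KO litters, and KO litter 2, whose vehicle library was the lowest of all, went the other way by 0.14. It fell by 0.38 in WT (standard error 0.09, limma adjusted p = 0.00369) and by 0.29 in KO (standard error 0.09, limma adjusted p = 0.0151). Without KO litter 2 the KO response was -0.43 (limma adjusted p = 7e-05), and the KO call was lost without KO litter 1 (-0.23, limma adjusted p = 0.0789) or 4 (-0.22, limma adjusted p = 0.08).

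*Tax1bp1* (chromosome 6, 52690676 to 52745153, plus strand) encodes a ubiquitin-binding receptor for aggregates and bacteria that also restrains NF-κB signalling together with the deubiquitinase A20. With vehicle it measured 7.40, 7.57, 7.54 and 7.62 log2 CPM in WT and 7.38, 7.33, 7.50 and 7.43 in KO. After LPS + IFNγ it measured 7.64, 7.82, 7.70 and 7.84 in WT and 7.76, 7.84, 7.70 and 7.80 in KO. The treatment groups were apart in both genotypes, and the KO litters started lower on average and ended at the same level. It rose by 0.22 in WT (standard error 0.05, limma adjusted p = 0.00388) and by 0.37 in KO (standard error 0.05, limma adjusted p = 7.9e-05), a fold of 1.16 and 1.29, and it was called under each alternative tried.

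*Map1lc3b* (chromosome 8, 122317100 to 122325499, plus strand) encodes LC3B, the ATG8 protein most often followed as a marker of autophagosomes, and had the largest response of the members in both genotypes. Its vehicle libraries stood at 7.62, 7.97, 7.90 and 8.16 log2 CPM in WT and 7.64, 7.23, 7.78 and 7.66 in KO. Its treated libraries stood at 7.19, 7.49, 7.51 and 7.63 in WT and 6.97, 6.79, 7.28 and 6.81 in KO. Each of the 8 litters went down, by 0.40 to 0.52 log2 units in WT and by 0.44 to 0.85 in KO, although litters differed enough at the start that the treatment groups overlapped. The response was -0.46 in WT (standard error 0.06, limma adjusted p = 8.98e-05) and -0.61 in KO (standard error 0.06, limma adjusted p = 6.96e-06), a fold of 0.73 and 0.65. It was called under each alternative tried in both genotypes.

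*Map1lc3a* (chromosome 2, 155118217 to 155119998, plus strand) encodes LC3A, the other LC3 protein of mice measured here. With vehicle it measured 5.79, 5.99, 5.86 and 5.93 log2 CPM in WT and 5.82, 5.66, 5.92 and 5.68 in KO. After LPS + IFNγ it measured 5.68, 6.01, 5.96 and 5.82 in WT and 5.66, 5.55, 5.82 and 5.45 in KO. WT litters went both ways, by -0.11 to 0.10, and the 4 KO litters all went down, by 0.10 to 0.23. The response was -0.03 in WT (standard error 0.06, limma adjusted p = 0.736, 95% interval -0.15 to 0.10) and -0.15 in KO (standard error 0.06, limma adjusted p = 0.0408). The KO call was lost without WT litter 2 (limma adjusted p = 0.0583) or any of the 4 KO litters (0.0568 to 0.136).

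*Gabarap* (chromosome 11, 69881888 to 69886109, plus strand) encodes the founding member of the GABARAP branch, which acts late in the closing of autophagosomes and their fusion with lysosomes. Its vehicle libraries stood at 7.65, 7.94, 7.94 and 8.12 log2 CPM in WT and 7.61, 7.34, 7.84 and 7.68 in KO. Its treated libraries stood at 7.59, 7.98, 7.82 and 7.96 in WT and 7.55, 7.43, 7.74 and 7.41 in KO. Treated and vehicle libraries covered much the same range in both genotypes, and litter 2 of each went up while the other 6 litters went down. The response was -0.08 in WT (limma adjusted p = 0.31, 95% interval -0.20 to 0.05) and -0.09 in KO (limma adjusted p = 0.231, 95% interval -0.21 to 0.04). With median centring it was called lower in both, at -0.16 in WT (limma adjusted p = 0.0421) and -0.16 in KO (limma adjusted p = 0.0381).

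*Gabarapl1* (chromosome 6, 129509725 to 129520544, plus strand) encodes a GABARAP relative, also known as GEC1, that is abundant in the brain. With vehicle it measured 6.81, 7.13, 7.11 and 7.24 log2 CPM in WT and 6.98, 6.62, 7.17 and 6.98 in KO. After LPS + IFNγ it measured 7.15, 7.32, 7.33 and 7.35 in WT and 7.13, 7.21, 7.23 and 7.33 in KO. Each litter was higher after treatment, by 0.11 to 0.34 in WT and 0.07 to 0.59 in KO, and the treated libraries of both genotypes lay in a narrow band. It rose by 0.21 in WT (standard error 0.07, limma adjusted p = 0.0342) and by 0.29 in KO (standard error 0.07, limma adjusted p = 0.00654). The WT call was lost after median centring (0.13, limma adjusted p = 0.185) and without WT litter 1 (0.17, limma adjusted p = 0.142), 2 (0.0841) or 3 (0.0954), and with DESeq2 (0.19, adjusted p = 0.061). The KO value was 0.19 without KO litter 2 (limma adjusted p = 0.0317).

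*Gabarapl2* (chromosome 8, 112667322 to 112682011, plus strand) encodes GATE-16, which was first known from transport within the Golgi. Vehicle libraries measured 5.90, 6.00, 5.97 and 5.89 log2 CPM in WT and 5.88, 5.90, 6.10 and 5.90 in KO. Treated libraries measured 5.66, 5.85, 6.13 and 5.98 in WT and 5.66, 5.73, 5.63 and 5.80 in KO. In WT 2 litters went down and 2 went up, while the 4 KO litters went down and their treated libraries lay below their vehicle libraries. The response was -0.03 in WT (limma adjusted p = 0.767, 95% interval -0.20 to 0.14) and -0.24 in KO (standard error 0.08, limma adjusted p = 0.0219), and the KO call was lost without KO litter 1 (-0.25, limma adjusted p = 0.0553) or 3 (-0.17, limma adjusted p = 0.111).

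**Figure D3:**
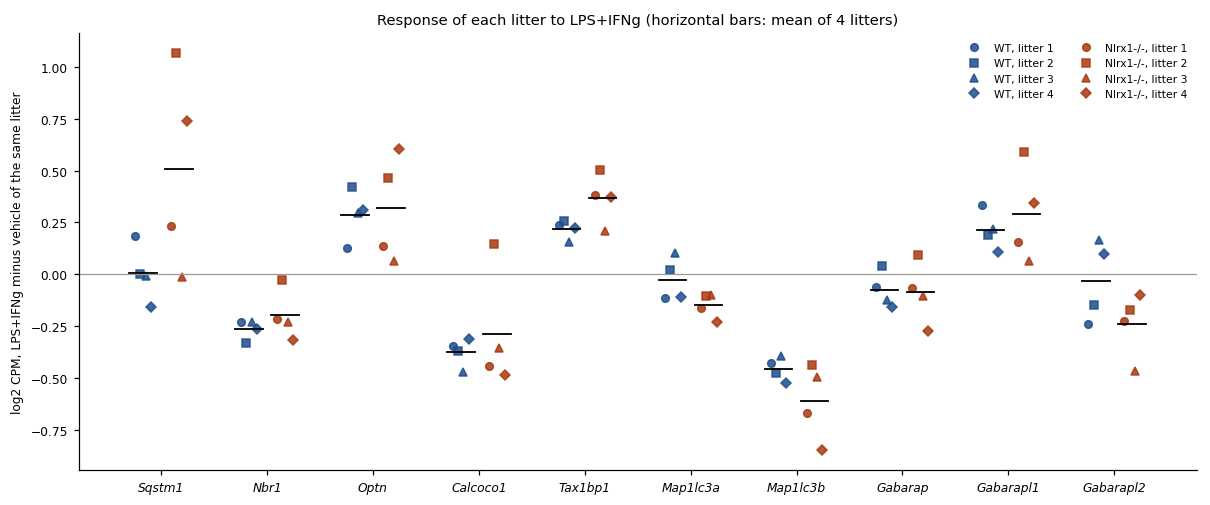
Response of each gene to LPS + IFNγ within a litter (log2 CPM treated minus vehicle), 1 point per litter, WT and KO side by side, with the mean of 4 litters. *Map1lc3b* is below 0 in 8 of 8 litters, *Tax1bp1*, *Optn* and *Gabarapl1* are above 0 in 8 of 8, and the KO litters of *Sqstm1* spread from -0.01 to 1.07.

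In log2 CPM *Map1lc3b* went down and *Gabarapl1* went up, although the WT call of *Gabarapl1* was lost after median centring. The make-up of the ATG8 family within a library shifted too. The GABARAP genes held 71.9%, 71.4%, 72.5% and 71.7% of the summed ATG8 TPM in WT vehicle and 75.5%, 75.3%, 75.0% and 75.7% in WT LPS + IFNγ. In KO they held 71.6%, 72.7%, 72.9% and 72.9% with vehicle and 76.6%, 77.9%, 75.3% and 78.9% after LPS + IFNγ. The share was higher after treatment in 8 of 8 litters and the treatment groups did not overlap in either genotype; no test was run on these shares, which are given as a description.

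The *Map1lc3b* share of the family went from 16.9% ± 0.83 with vehicle (SD, n = 4) to 12.9% ± 0.543 after LPS + IFNγ in WT, and from 15.5% ± 0.851 to 11.1% ± 1.03 in KO, and the treatment groups did not overlap in either genotype. The *Gabarapl1* share went from between 13.2% and 13.9% to between 16.1% and 17.7% in WT, and from between 13.5% and 14.7% to between 17.5% and 21.3% in KO. With vehicle *Map1lc3b* held the larger share in each WT library and in each KO library, and after LPS + IFNγ *Gabarapl1* held the larger share in each of the 8 libraries. *Gabarap* kept the largest share throughout, between 40.1% and 45.7%. Shares are ratios within a library and do not say which gene changed in amount.

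**Figure D4:**
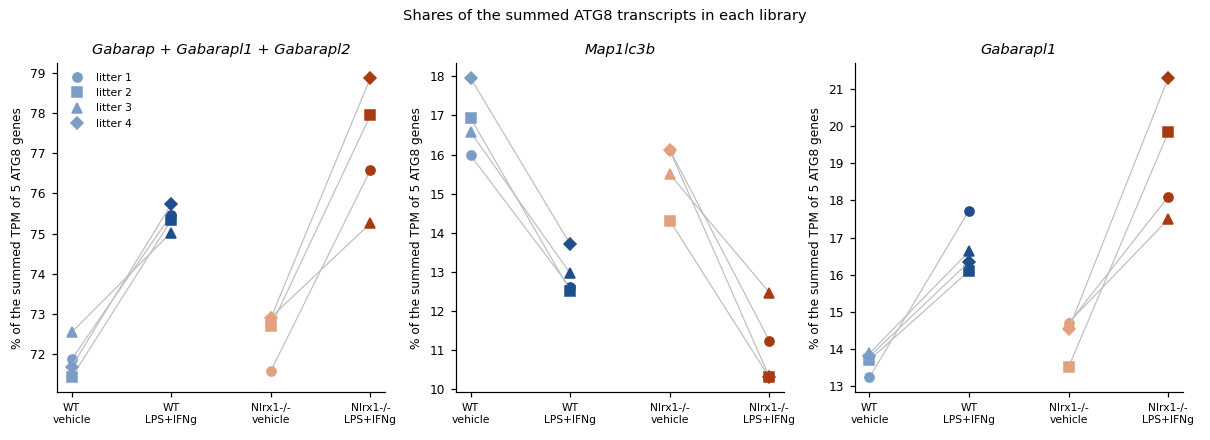
Share (percent) of the summed TPM of the 5 ATG8 genes held by the 3 GABARAP genes together, by *Map1lc3b* and by *Gabarapl1*, 1 panel each, for each of the 16 libraries by group. Marker shapes give the litter, lines join the libraries of a litter, and the axes do not start at 0. The *Map1lc3b* share goes down and the *Gabarapl1* share goes up in each of the 8 litters.

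Whether the response differed between genotypes was tested as an interaction, and 0 of 10 members were called, where 0% of all genes were called (0 of 16707 with limma, 2786 or 16.7% at an unadjusted p below 0.05, and 111 up and 185 down with DESeq2). *Sqstm1* had the largest difference, with a KO response 0.50 log2 units above that of WT (standard error 0.19, limma adjusted p = 0.225, unadjusted p = 0.0213, 95% interval 0.09 to 0.91), and it was the only member at an unadjusted p below 0.05. The litter responses of the genotypes overlapped, since KO litter 3 lay within the WT range. The difference was called without KO litter 3 (0.67, limma adjusted p = 0.0345), a fit that called 4.92% of all genes. It was 0.31 without KO litter 2 (limma adjusted p = 0.39). For *Tax1bp1* the difference was 0.15 (limma adjusted p = 0.32, 95% interval -0.01 to 0.30), for *Gabarapl2* -0.21 (limma adjusted p = 0.365, 95% interval -0.45 to 0.03) and for *Map1lc3b* -0.16 (limma adjusted p = 0.399, 95% interval -0.35 to 0.04). Without KO litter 4 that of *Map1lc3b* was -0.08, and without KO litter 3 that of *Gabarapl2* was -0.13. The other 6 members differed by -0.12 to 0.09. Responses of WT and KO litters did not overlap for 0 of 10 members, beside 8.31% of all genes.

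Levels in KO were set against WT within each treatment, over 4 litters of each genotype. The fit held all 16 libraries without litter terms, so the 2 libraries of a litter counted as independent in its estimate of the spread. With vehicle 9 of 10 members had a lower mean in KO, 0 of 10 were called (0.00599% of all genes, which is *Nlrx1* alone, at -1.75 with a limma adjusted p of 0.0497), and 6 had an unadjusted p below 0.05, as had 21.1% of all genes. DESeq2 called 1 member, *Nbr1* (-0.19, adjusted p = 0.0465), and 4.57% of all genes. The median difference of the members was -0.23 log2 units, beside 0.01 over all genes. Of 67 other autophagy genes, described below, 53 had a lower mean in KO, with a median of -0.09. Marker medians were -0.36 for 10 astrocyte markers (8 lower), -0.44 for 8 oligodendrocyte lineage markers (5 lower), -0.86 for 3 vascular and -0.66 for 3 ependymal markers. They were 0.05 for 2 microglial, 0.23 for 6 neuronal and -0.04 for 4 fibroblast markers, and 0 were called in each list. The part of these markers was not tested. *Sqstm1* differed by -0.49 (standard error 0.16, limma adjusted p = 0.126, 95% interval -0.83 to -0.14) and *Optn* by -0.37 (standard error 0.12, limma adjusted p = 0.119, 95% interval -0.62 to -0.12). *Map1lc3b* was at -0.33, *Gabarap* at -0.29, *Calcoco1* at -0.28, *Nbr1* at -0.18, and the remaining 4 lay between -0.14 and 0.01. Without KO litter 2 *Map1lc3b* was at -0.22, *Calcoco1* at -0.14 and *Gabarapl1* at -0.03. *Sqstm1* was called without WT litter 1 (-0.62, limma adjusted p = 0.048) and without KO litter 3 (-0.60, limma adjusted p = 0.0329), and *Optn* without KO litter 3 (-0.45, limma adjusted p = 0.0346). Of all genes 2.96% were called without WT litter 1 and 9.68% without KO litter 3. KO litter 2 gave the lowest vehicle library of all for *Sqstm1*, *Nbr1*, *Optn*, *Calcoco1*, *Tax1bp1*, *Map1lc3a*, *Map1lc3b*, *Gabarap* and *Gabarapl1*.

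After LPS + IFNγ 1 of 10 members was called, *Map1lc3b*, which was 0.49 log2 units lower in KO (standard error 0.14, limma adjusted p = 0.0442, 95% interval -0.78 to -0.19), where 8.8% of all genes were called, 4.41% lower in KO. The highest KO library of *Map1lc3b*, 7.28, lay above its lowest WT library, 7.19. The call was lost without WT litter 2, 3 or 4 (limma adjusted p = 0.123, 0.132 and 0.138), without KO litter 1, 2 or 4 (0.0738, 0.0871 and 0.151), and with edgeR (-0.50, adjusted p = 0.0531). It was also lost with limma-voom and in a fit of that treatment alone, where 2.38% and 0.00599% of all genes were called. DESeq2 called *Map1lc3b* and *Optn* (-0.35, adjusted p = 0.0386), and 15.2% of all genes. *Optn* (-0.34, limma adjusted p = 0.0719), *Gabarap* (-0.31, limma adjusted p = 0.101), *Map1lc3a* (-0.25, limma adjusted p = 0.0906) and *Gabarapl2* (-0.20, limma adjusted p = 0.137) were not called. Without WT litter 1 these 4 were called as well (limma adjusted p from 0.0373 to 0.0459), and without KO litter 3 *Map1lc3a* and *Gabarap* were (limma adjusted p = 0.0204 and 0.0314). In these fits 12.3% and 23.2% of all genes were called. *Sqstm1*, at -0.49 with vehicle, differed by 0.01 here (limma adjusted p = 0.963, 95% interval -0.33 to 0.36), and *Tax1bp1* by 0.03. The median of the members was -0.20, beside -0.00 over all genes. For the 67 other autophagy genes it was -0.05, and 42 of them were lower in KO. The litters of the genotypes did not overlap for *Nbr1* in either treatment, with the highest KO library at 8.10 and the lowest WT library at 8.13 with vehicle, and at 7.88 and 7.90 after LPS + IFNγ. The same held for *Optn* with vehicle (4.85 and 4.91), and KO lay wholly below WT for 3.43% of all genes with vehicle and 6.23% after LPS + IFNγ. Marker lists of several cell types had a median below 0 in KO against WT after LPS + IFNγ. It was -0.79 log2 units for 10 astrocyte markers (10 lower, 5 called), -0.83 for 8 oligodendrocyte lineage markers (7 lower, 1 called) and -1.19 for 3 ependymal markers (1 called). The other lists had medians of 0.26 for 2 microglial, 0.03 for 6 neuronal, 0.18 for 3 vascular and 0.47 for 4 fibroblast markers, with 0 called in each. Ependymal markers summed to between 120 and 171 CPM in WT and between 71.7 and 117 CPM in KO in these libraries. The part of these markers in the differences was not tested.

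Beyond these 10 genes, 67 of 68 listed autophagy genes were in the table. In WT 15 were called up and 22 down with 30 not called, where 24.9% of all genes were called up and 21.9% down. In KO 19 were called up and 19 down with 29 not called, where 26.6% of all genes were called up and 25.5% down. These shares of all genes also stand beside the counts by role below. The medians of the 67 genes were -0.05 in WT and -0.04 in KO. After median centring the WT split was 12 up and 28 down (19.5% and 28.6% of all genes) and the KO split 15 up and 25 down (21.9% and 31% of all genes). Without that centring 29 of the 67 genes were called in both genotypes, 29 in the same direction, which is 78.4% of the WT calls and 76.3% of the KO calls. The corresponding shares were 100% and 66.7% for the 10 members, and 78.7% and 70.6% for all genes.

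Of the 5 genes of the ULK1 complex, the kinase complex that starts autophagosome formation, 3 were down in WT and 2 in KO, with 0 up in each. *Ulk1* fell by 0.46 in WT and 0.40 in KO (limma adjusted p = 0.000102 and 0.000249), and *Ulk2* by 0.45 and 0.40 (limma adjusted p = 6.8e-06 and 1.37e-05). *Rb1cc1*, the scaffold of the complex, was at -0.21 in WT (limma adjusted p = 0.0284) and -0.04 in KO (limma adjusted p = 0.661). Of 8 genes of the lipid kinase complex that nucleates the membrane, 2 were up and 3 down in WT and 3 up and 3 down in KO, among them *Uvrag*, up by 0.68 and 0.65 (limma adjusted p = 4.47e-05 and 5.43e-05), and *Atg14*, down by 0.29 and 0.34 (limma adjusted p = 0.00598 and 0.00211).

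Of 8 genes that supply membrane, 0 were up and 3 down in WT and 1 up and 3 down in KO. *Wdr45*, a lipid-binding adaptor, fell by 0.43 and 0.34 (limma adjusted p = 0.00699 and 0.0204), the lipid carrier *Atg2b* was at -0.34 in WT (limma adjusted p = 0.000829) and -0.06 in KO (limma adjusted p = 0.464), and *Atg9b*, below 0 log2 CPM in all 16 libraries, was at 1.33 in KO (limma adjusted p = 0.0373) and 0.04 in WT. Of 11 genes that process ATG8 proteins or attach them to lipid, 2 were called in WT (1 up, 1 down) and 4 in KO (2 up, 2 down). The ATG8 protease *Atg4d* was at 0.34 in WT (limma adjusted p = 0.0072) and 0.15 in KO (limma adjusted p = 0.175), its relative *Atg4a* at 0.47 in KO (limma adjusted p = 0.00188) and 0.16 in WT, and *Atg10* at -0.53 in KO (limma adjusted p = 0.0377) and -0.24 in WT. *Atg16l1*, which places the lipidation machinery on the membrane, was at -0.21 in WT (limma adjusted p = 0.0405) and 0.19 in KO (limma adjusted p = 0.0539), and the difference between these responses was not called (0.40, limma adjusted p = 0.168).

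Of 8 genes of fusion with the lysosome, 3 were up and 1 down in WT and 4 up and 1 down in KO. The SNARE *Vamp8* rose by 0.71 and 0.42 (limma adjusted p = 0.000386 and 0.0102) and its partner *Snap29* fell by 0.21 and 0.20 (limma adjusted p = 0.0153 and 0.0169). Of 12 receptors anchored in a membrane, 4 were up and 6 down in WT and 4 up and 7 down in KO. The mitochondrial receptor *Bnip3* rose by 0.67 and 0.72 (limma adjusted p = 3.46e-05 and 1.6e-05), and the endoplasmic reticulum receptor *Retreg1* was at -1.23 and -2.12 (limma adjusted p = 0.000408 and 4.55e-06), with an interaction of -0.89 that was not called (limma adjusted p = 0.184).

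Of 5 further soluble receptors, 1 was up and 2 down in WT and 1 up and 0 down in KO. *Nufip1*, a receptor for ribosomes, rose by 0.57 and 0.73 (limma adjusted p = 0.000514 and 6.42e-05), and *Tollip* was at -0.27 in WT (limma adjusted p = 0.00237) and -0.11 in KO (limma adjusted p = 0.113). Of 10 regulators, 4 were up and 3 down in WT and 4 up and 1 down in KO. *Keap1*, the adaptor that holds NRF2 for degradation and is itself bound by p62, rose by 0.93 and 0.96 (limma adjusted p = 5.46e-07 and 3.96e-07), and *Foxo3* fell by 0.45 and 0.18 (limma adjusted p = 0.000147 and 0.0325). *Mitf*, a relative of TFEB, was at -0.64 in WT (limma adjusted p = 0.0284) and -0.06 in KO (limma adjusted p = 0.822).

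Between genotypes 0 of these 67 genes were called in the interaction and 0 with vehicle, beside 0% and 0.00599% of all genes. After LPS + IFNγ 3 were called, beside 8.8% of all genes, namely *Atg16l1* (0.38 higher in KO, limma adjusted p = 0.0369), *Atg3*, the enzyme that attaches ATG8 proteins to lipid (0.26 higher, limma adjusted p = 0.0375), and *Retreg1* (-1.81, limma adjusted p = 0.0349). With 1 litter left out this count ran from 0, without WT litter 2, 3 or 4 or KO litter 2 or 4, to 11 without WT litter 1 and 13 without KO litter 3. The share of all genes called in the fits with 0 lay between 0.00599% and 0.012%, against 12.3% without WT litter 1 and 23.2% without KO litter 3.

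**Figure D5:**
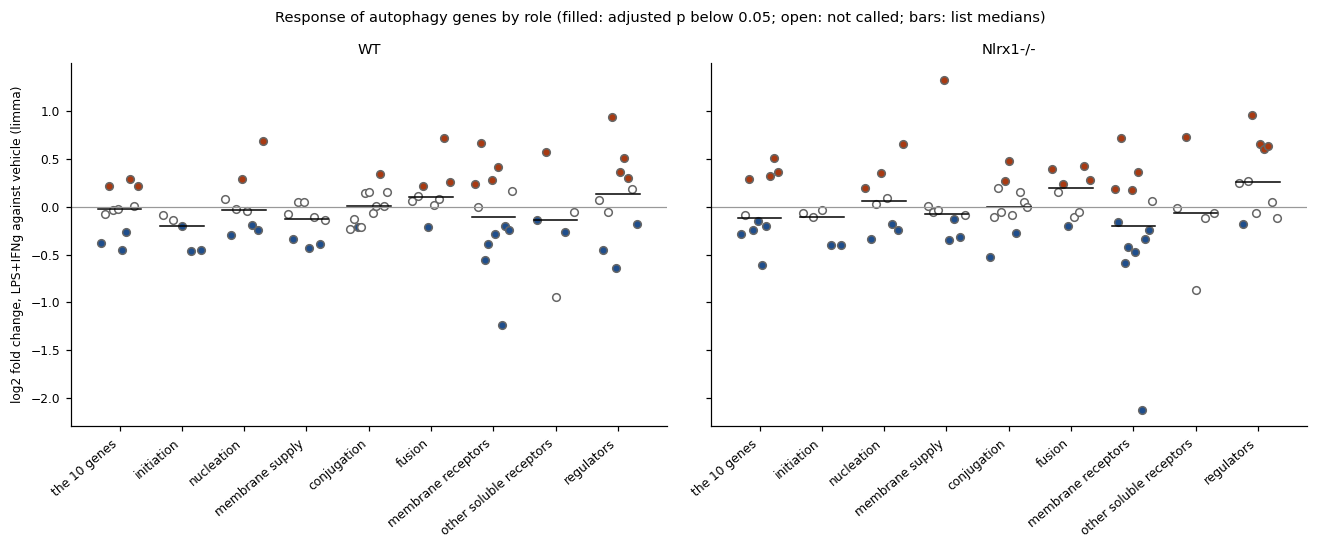
Log2 fold change of the response to LPS + IFNγ in WT and in KO for each gene of the member groups and of the 8 other autophagy lists, filled where the limma adjusted p is below 0.05. Genes of the ULK1 complex lie below 0 in both genotypes, and the other lists hold genes on both sides.

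The genes whose log2 CPM was most like that of *Sqstm1* over the 16 libraries were *Glis3* (Pearson r = 0.921), *Ecm1* (r = 0.920) and *Il6st* (r = 0.920), given as a description. Among the members *Gabarapl1* (r = 0.875) was 12th of all genes, *Optn* (r = 0.788) 88th and *Tax1bp1* (r = 0.761) 128th, while *Map1lc3b* (r = 0.0931) was 6651st. These libraries share litters and treatments, so the points are not independent.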

How the data were processed

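RNA from 16 astrocyte libraries was captured by poly-A and sequenced without strand information, so reads of overlapping genes on opposite strands cannot be told apart. Per the labels and the methods, the authors quantified transcripts with Salmon 1.7.0 on GRCm39 and deposited expected counts, TPM and effective lengths per transcript, without normalization between libraries. The authors also deposited CPM per gene from limma 3.58.1, a signal scaled by TMM library sizes and filtered for low counts, and log2 CPM, the log2 of these values with a small prior count. Columns of no sample numbered 0.

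The labels gave each library its group and a replicate number, and the methods of the study name biological replicates as litters. Libraries of a genotype with the same number were therefore taken as 1 litter. Replicates are separate litters, and the 2 wells of a litter share their mice. The log2 CPM were tested with limma 3.58.1 (trend) in R 4.3.3 with Benjamini-Hochberg adjustment over 16707 genes. Responses and the interaction used the design formula of the study, with litters as blocks within genotype, and KO was set against WT in a fit of the 4 groups without litter terms. A litter has 1 genotype. The 95% intervals use the moderated degrees of freedom. The libraries of a litter deviated together (Pearson r across genes 0.073 to 0.355, against a median of -0.052 between litters), with a consensus correlation of 0.364.

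TPM and expected counts were summed per gene over 106440 of 129698 transcripts paired with a symbol (96.7% to 97.3% of reads), and 16269 genes were in both tables. TPM are not scaled by TMM, so levels in TPM were compared between genes of a library only, and between groups only as shares within a library. Counts, rounded to whole numbers, were tested with edgeR 4.0.16 and DESeq2 1.42.0 as alternatives. Other alternatives were limma-voom, median centring, log2 of CPM plus 1, a mean of at least 1 log2 CPM, a robust spread, a threshold of 0.01, the block, the libraries of a treatment alone, and leaving out each litter. On simulated data with 200 of 16066 genes changed by 1 log2 unit, the limma fits called 65.5% (WT response), 68.0% (KO response), 53.0% (interaction), 68.5% (vehicle) and 71.5% (LPS + IFNγ) of them. The simulation held no litter effects, and its change was larger than any mean response or difference of a member. These shares therefore do not say how often a change of a member would be called.

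Gene positions are those of GENCODE M39. A further motif that was searched upstream is not reported here. Every member is named. Of each list of other autophagy genes the called genes with the largest and smallest response in each genotype are named, with every gene called between genotypes, and the 3 genes most correlated with *Sqstm1*. The members and lists were chosen with earlier results of these data known. Python 3.11.15 was used with pandas 2.3.3 and numpy 2.4.6 for tables and with matplotlib 3.10.9 for plots.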

Additional observations from a re-analysis of the deposited data

Results flagged for a closer look

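Of 60 sets of 4 litter values examined, 2 held a value that stood apart from the other 3 by Dixon's 95% critical value for 4 values. Both were sets of log2 CPM. Chance gives about 1 in 20 such sets, but these sets share libraries and are not independent. In WT LPS + IFNγ, *Gabarapl1* was at 7.15 in litter 1 against 7.32 to 7.35 in the others. In KO vehicle, *Gabarapl2* was at 6.10 in litter 3 against 5.88 to 5.90 in the others.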

How the results depend on the processing

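The responses of *Nbr1*, *Tax1bp1* and *Map1lc3b* in both genotypes, of *Calcoco1* in WT and of *Sqstm1* and *Gabarapl1* in KO were called under each of 16 alternatives. At an adjusted p below 0.01, 5 members were called in the KO response and 0 in KO against WT after LPS + IFNγ. The latter count was also 0 in a fit of that treatment alone (0.00599% of all genes called), with edgeR (4.72%) and with limma-voom (2.38%). It was 2 with DESeq2 (15.2%), where *Optn* joined *Map1lc3b*. With vehicle DESeq2 called 1 member and 4.57% of all genes. The WT response of *Sqstm1* turned to -0.083 with median centring, -0.019 with DESeq2 and -0.011 with limma-voom. The KO minus WT difference of *Gabarapl2* with vehicle turned to -0.016 with median centring, -0.0024 with DESeq2 and -0.00020 with limma-voom, and that of *Sqstm1* after LPS + IFNγ to -0.0016 with edgeR. *Nlrx1* with vehicle lost its call at -1.75 with genes of a mean of at least 1 log2 CPM (adjusted p = 0.0504), at -1.75 with that treatment alone (adjusted p = 0.219) and at -1.70 with edgeR (adjusted p = 0.051). Causes were not tested.

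With 1 litter left out, members called ran from 4 to 6 in the WT response, 6 to 9 in the KO response, 0 to 1 in the interaction, 0 to 2 in KO against WT with vehicle and 0 to 5 after LPS + IFNγ. The share of all genes called ran over these fits from 37.2% to 48.8% in the WT response, 44% to 50.8% in the KO response, 0% to 4.92% in the interaction, 0% to 9.68% with vehicle and 0.00599% to 23.2% after LPS + IFNγ. The highest counts between genotypes came without KO litter 3 or, for LPS + IFNγ, without WT litter 1. Other autophagy genes called ran from 0 to 2 in the interaction, 0 to 6 with vehicle and 0 to 13 after LPS + IFNγ, and *Nlrx1* with vehicle from -1.91 to -1.54, with its call lost in 4 of 8 fits, without WT litter 2, 3 or 4 or KO litter 1 (limma adjusted p from 0.119 to 0.277). Values that changed sign were the WT responses of *Sqstm1* (-0.056 to 0.059), *Map1lc3a* (-0.068 to 0.0034) and *Gabarapl2* (-0.10 to 0.038), the interactions of *Optn* (-0.066 to 0.11), *Calcoco1* (-0.055 to 0.16), *Gabarap* (-0.072 to 0.05) and *Gabarapl1* (-0.025 to 0.15), the vehicle difference of *Gabarapl2* (-0.041 to 0.031), and the LPS + IFNγ differences of *Sqstm1* (-0.057 to 0.078) and *Tax1bp1* (-0.01 to 0.057).

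Without the litter block, 4 members were called in the WT response (1 up, 3 down), 7 in KO (4 up, 3 down) and 0 in the interaction. Of all genes 35.6%, 41.6% and 0% were called there. *Optn* and *Gabarapl1* in WT and *Calcoco1* and *Map1lc3a* in KO lost their calls. Within a treatment, WT and KO libraries of the same litter number had r from -0.089 to 0.180. This range overlaps that of libraries of 1 litter (0.073 to 0.355), so it cannot decide whether the numbers pair the genotypes. The study gives WT and KO pups as born on the same day. Without such a pairing 0.00599% of all genes were called with vehicle and 8.8% after LPS + IFNγ. With the number as a replicate block 0 members were called with vehicle (3.54% of all genes) and 1 after LPS + IFNγ (16.8% of all genes), *Map1lc3b* (limma adjusted p = 0.022). The lowest count of a member in a library was 740 read pairs, and depth was not varied.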
